A study of Macaca fascicularis with 20 samples.

Results

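Perforin (PRF1) and 6 other genes of the cytotoxic granule that do not encode granzymes were followed across natural killer (NK) cell subsets and B cells of the cynomolgus macaque spleen: granulysin (GNLY), NKG7, cathepsin W (CTSW), cystatin F (CST7), serglycin (SRGN) and RAB27A. The genes were chosen by name, and no rule on measured values entered the choice, although earlier results of these data were known. All 7 were among the 12530 genes that a microarray probe could be matched to, with 10 probes in all, a pair each for PRF1, GNLY and RAB27A and 1 probe for each of the other 4.

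NK cells and cytotoxic T cells kill by releasing the contents of secretory lysosomes, the cytotoxic granules, into the contact with a target cell. Perforin forms pores in the target membrane through which granzymes enter, and granulysin is a small membrane-damaging protein of the same granules. Serglycin is the proteoglycan core on which the positively charged granule proteins are stored, cystatin F inhibits the cathepsins that mature granule proteases, cathepsin W is a cysteine protease found mainly in cytotoxic lymphocytes, NKG7 is a granule membrane protein needed for full release, and RAB27A is the small GTPase that docks granules at the plasma membrane. In the mouse, CD27 and CD11b are the surface proteins usually used to arrange NK cells from less to more mature.

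The study sorted NK cells of thawed, unstimulated spleen preparations by CD27 and CD11b into 4 subsets and measured their RNA on 1-colour Agilent arrays. There were 4 arrays of cells low for both proteins (CD27low CD11blow, here double-low), 4 of CD27+ CD11blow cells (CD27 single-positive), 5 of CD27+ CD11b+ cells (double-positive), 5 of CD27low CD11b+ cells (CD11b single-positive) and 2 of B cells. Every NK subset was gated as live CD45+ cells without CD3, CD14, CD20 or HLA-DR that carried NKG2A and CD8a, so NK cells lacking either of those 2 proteins were outside all 4 subsets. The B cells carried CD20 and HLA-DR and lacked NKG2A and CD8a.

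The animals were labelled by origin, sex and age. Replicate 1 of each NK subset was labelled as from Cambodia, male and 4 years old, and replicate 2 as from Vietnam and male, with no age used here. Replicate 3 was also from Vietnam and male, with an age that differed between the subsets: 9 years for double-low, 10 for CD27 single-positive, 11 for CD11b single-positive and 12 for double-positive cells. A female from Singapore, 18 years old, was the label of double-low replicate 4, CD27 single-positive replicate 4, replicate 5 of both CD11b+ subsets and B cell replicate 2. Replicate 4 of both CD11b+ subsets was labelled as a male from Singapore, 5 years old, and B cell replicate 1 as a female from Singapore, 5 years old. The labels do not say which arrays share an animal, so p-values measure the spread between these arrays. For values within sets, the NK arrays were grouped by label into 4 sets that hold every subset: replicate 1, replicate 2, replicate 3 and the 18-year-old female. They are called animal sets here, although no label names a shared animal. The arrays of the replicate 3 set share origin and sex but carry 4 different ages, and whether they came from 1 animal is not known. The set of the 18-year-old female has its CD11blow arrays on a different slide from its CD11b+ arrays.

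The arrays lay on 3 slides. Replicates 1 and 2 of all 4 NK subsets were on the first slide, replicate 3 of all 4 with double-low replicate 4, CD27 single-positive replicate 4 and both B cell arrays were on the second, and replicates 4 and 5 of the CD11b+ subsets were on the third, which held no CD11blow array. The 75th percentile of signal, against which each array was scaled, ran from 180 to 1897 intensity units with a median of 1280, and was lowest on double-positive replicate 4 (180) and double-low replicate 4 (199.6). The share of probes well above background was 67.9% to 96.0%. Of 12 NK markers measured, 7 were called higher in NK cells than in B cells, where 1.72% of all genes tested were called higher. NCAM1 (CD56) was well above background on only 6 of the 18 NK arrays. Of 9 B cell markers, 5 were called lower in NK cells, where 2.92% of all genes tested were called in either direction. CD27 itself differed by 0.87 ± 0.31 (log2, SE) between the CD27+ and CD27low subsets without passing the test (adjusted p = 0.199), its array levels overlapped between all 4 NK subsets, and no probe was matched to ITGAM, the gene of CD11b. Of 10 T cell markers, 5 were measured, and TRAT1 was called higher in NK cells than in B cells by 7.18 ± 0.69 (log2, SE).

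Levels are given as log2 signal relative to the 75th percentile of the same array, so that 0 is that percentile and 1 unit is a 2-fold difference in signal. Probes differ in how strongly they bind, so levels were compared between arrays for 1 gene and never between genes. The probe that stood for each of the 7 genes was well above background on all 20 arrays, and none was saturated. In sorted cell pools, fewer cells carrying a transcript and less of it per cell cannot be told apart.

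**Figure D1:**
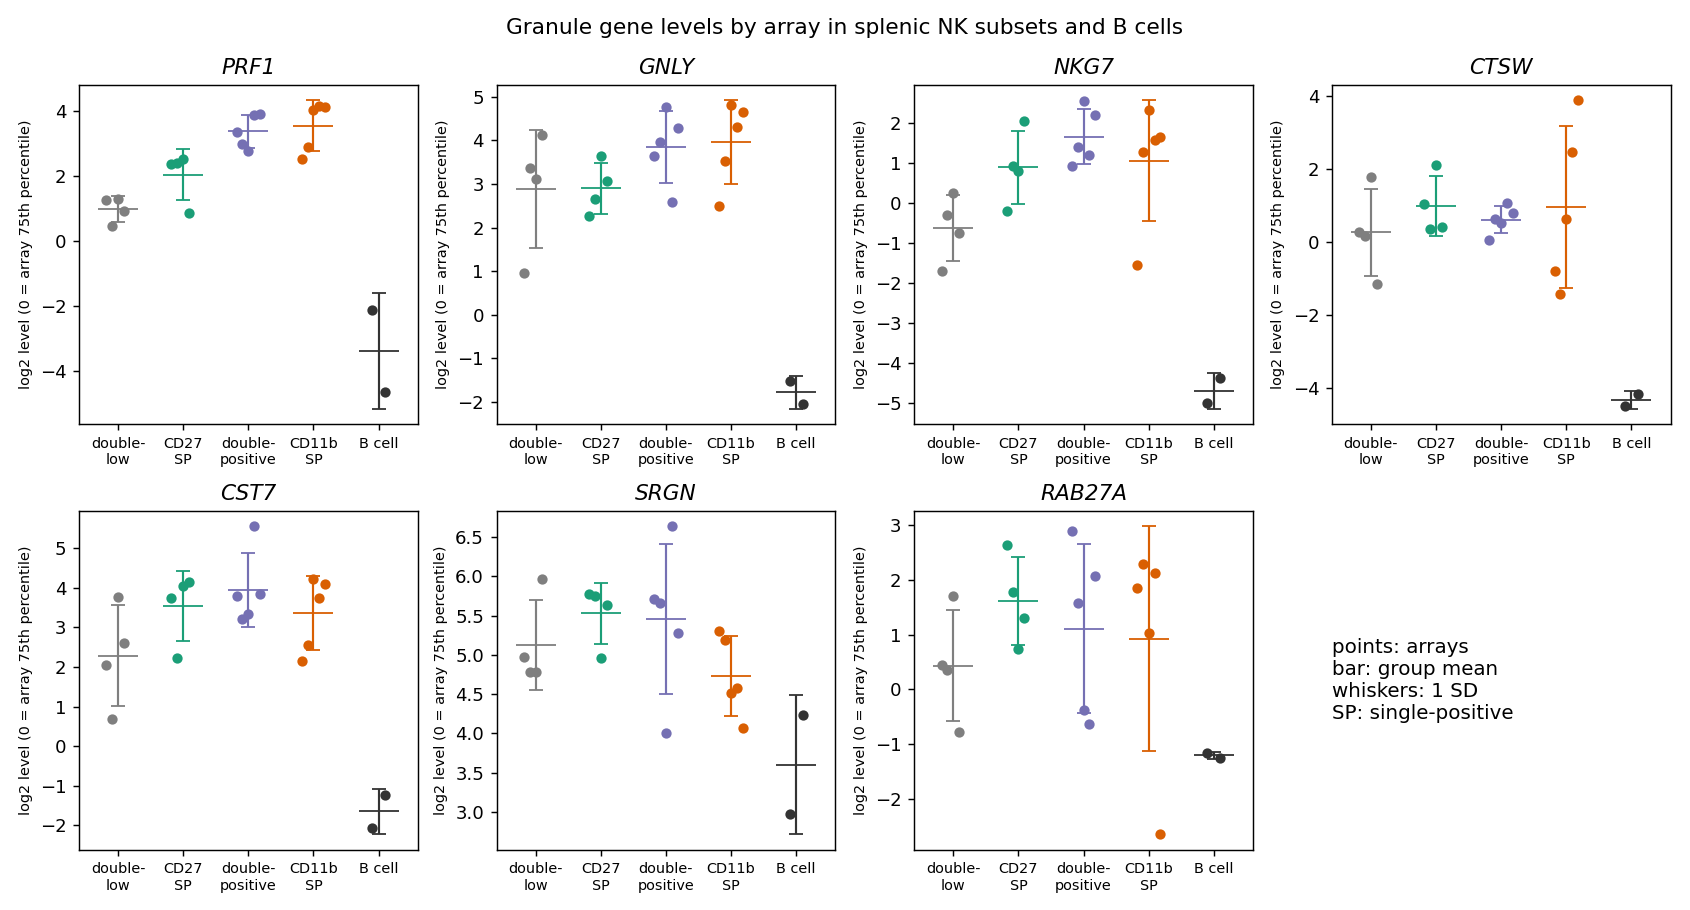
Level of each of the 7 genes on every array (points), as log2 signal with 0 at the 75th percentile of the array, by sorted group, with the group mean (bar) and 1 SD (whiskers). For PRF1, GNLY, NKG7, CTSW and CST7 all 18 NK arrays lie above both B cell arrays, and among NK subsets the PRF1 points of the double-positive group all lie above those of the CD27 single-positive group.

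The first comparison set all NK cells against B cells. PRF1, GNLY, NKG7, CTSW and CST7 were called higher in NK cells, 5 of the 7 genes, where 1.72% of the 12388 genes tested were called higher. The median difference of the 7 was 5.04 (log2), against 0.36 for all genes tested. SRGN and RAB27A did not pass the test. Each of the 5 called genes had every NK array above both B cell arrays, as did 7.44% of all genes tested.

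Among the pore formers, PRF1 had levels of 0.44 to 4.15 on the 18 NK arrays, with a median of 2.63, and -2.14 and -4.64 on the B cell arrays. Its lowest NK array thus lay 2.58 above the higher B cell array. The mean of the 4 subset means exceeded the B cell mean by 5.87 ± 0.56 (log2, SE; 58.4-fold; limma adjusted p = 4.21e-06). The 2 B cell arrays differed widely from each other, and the PRF1 difference was 7.12 without B cell replicate 1 and 4.62 without replicate 2. GNLY had NK levels of 0.96 to 4.81 with a median of 3.58, against -1.52 and -2.05 in B cells. Its difference was 5.19 ± 0.65 (log2, SE; adjusted p = 6.86e-05).

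NKG7, the granule membrane protein, had NK levels of -1.69 to 2.56 (median 1.08) and B cell levels of -5.01 and -4.37. The difference was 5.44 ± 0.72 (log2, SE; adjusted p = 0.000125), and the groups lay 2.68 apart at their nearest arrays. CTSW, the protease, had NK levels of -1.42 to 3.89 (median 0.57) and B cell levels of -4.51 and -4.17. It differed by 5.04 ± 0.92 (log2, SE; adjusted p = 0.00314). The CTSW call was lost on leaving out B cell replicate 1 (adjusted p = 0.143) or replicate 2 (adjusted p = 0.102). CST7, the protease inhibitor, had NK levels of 0.69 to 5.56 (median 3.75) and B cell levels of -2.06 and -1.24, a difference of 4.93 ± 0.69 (log2, SE; adjusted p = 0.000234).

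The storage proteoglycan and the docking GTPase were nearer to their B cell levels. SRGN lay at 4.00 to 6.64 on the NK arrays (median 5.24) and at 2.97 and 4.23 on the B cell arrays, and 16 of 18 NK arrays were above both. Its difference of 1.61 ± 0.49 (log2, SE; adjusted p = 0.0769) did not pass the test, but did without double-positive replicate 3 (adjusted p = 0.0339). It was 0.98 without B cell replicate 1 (adjusted p = 0.616) and 2.24 without B cell replicate 2 (adjusted p = 0.245). RAB27A lay at -2.66 to 2.90 on the NK arrays (median 1.44) and at -1.16 and -1.26 on the B cell arrays, and 17 of 18 NK arrays were above both. On this first probe the exception was CD11b single-positive replicate 5, at -2.66, and the difference was 2.23 ± 0.99 (log2, SE; adjusted p = 0.194). The second RAB27A probe gave 1.37 ± 0.96 (log2, SE; limma adjusted p = 0.373). On that probe 14 of 18 NK arrays were above both B cell arrays and 3 were below both.

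Both B cell arrays were on the second slide. Against the 6 NK arrays of that slide alone, the differences were 5.78 for PRF1, 5.92 for GNLY, 6.21 for NKG7, 5.02 for CTSW, 5.36 for CST7, 1.2 for SRGN and 1.75 for RAB27A (log2), and 5 of the 7 genes were called, where 15.8% of all genes tested were called in either direction. The set of the 18-year-old female covered 4 NK arrays and B cell replicate 2. There the difference ran from 1.01 for SRGN to 7.08 for PRF1.

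Each NK subset taken alone against B cells also gave 5 called genes of 7. The share of all genes called higher in that comparison was 7.52% for double-low, 0.533% for CD27 single-positive, 0.613% for double-positive and 1.1% for CD11b single-positive cells. The PRF1 difference from B cells was 4.36 for double-low, 5.42 for CD27 single-positive, 6.75 for double-positive and 6.93 for CD11b single-positive cells (log2). These 4 comparisons share the same 2 B cell arrays. In the plot of NK differences from B cells the double-low subset has the smallest value for 6 of the 7 genes, all except SRGN.

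**Figure D2:**
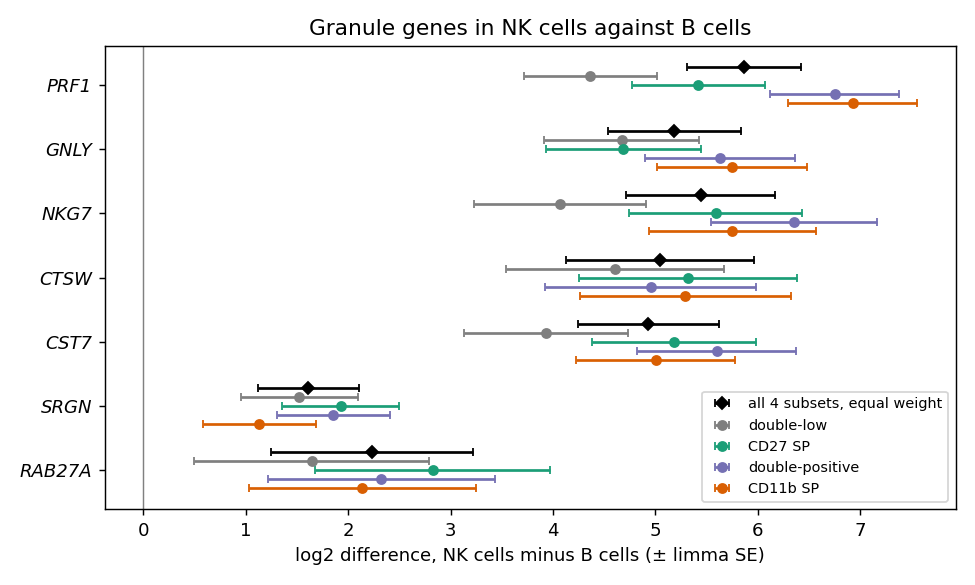
Difference of NK cells from B cells for each gene (log2, whiskers ± 1 SE from the limma fit), for the mean of the 4 subsets (diamonds) and for each subset alone (circles). PRF1, GNLY, NKG7, CTSW and CST7 lie between 3.93 and 6.93 in all subsets, SRGN between 1.13 and 1.93 and RAB27A between 1.64 and 2.82.

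The second comparison asked whether the granule genes differed between NK cells with CD11b (double-positive and CD11b single-positive, 10 arrays) and those low for it (double-low and CD27 single-positive, 8 arrays). PRF1 was higher in the CD11b+ cells and was the only gene of the 7 to pass the test. Only 2 of the 12192 genes tested passed (0.0164%), PRF1 and PLEKHG3, a guanine nucleotide exchange factor. At an unadjusted p of 0.05, 615 genes and 3 of the 7 granule genes were called.

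PRF1 levels were 1.26, 0.44, 1.29 and 0.90 on the 4 double-low arrays and 2.35, 2.39, 2.52 and 0.87 on the 4 CD27 single-positive arrays, in replicate order. They were 3.34, 2.97, 2.75, 3.86 and 3.89 on the double-positive arrays. On the CD11b single-positive arrays they were 2.51, 2.88, 4.03, 4.15 and 4.11. Of the 10 CD11b+ arrays, 9 were above all 8 CD11blow arrays, and the remaining array (CD11b single-positive replicate 1, at 2.51) was just under CD27 single-positive replicate 3 at 2.52. The difference was 1.95 ± 0.31 (log2, SE; limma adjusted p = 0.0307), or 3.85-fold. It was 1.12 within the replicate 1 set, 1.51 within the replicate 2 set, 1.48 within the replicate 3 set of unlike ages and 3.11 within the set of the 18-year-old female. With the animal set as a block it was 1.81 ± 0.33 (log2, SE) and no longer passed the test (adjusted p = 0.177). Only 0.180% of all genes had a larger positive difference.

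The PRF1 call was near its threshold. It was lost on leaving out any of the 4 double-low arrays (adjusted p = 0.0680, 0.121, 0.0634 and 0.0879 without replicates 1 to 4), CD27 single-positive replicate 1, 2 or 4 (0.0641, 0.0603 and 0.0680), double-positive replicate 1 or 5 (0.0628 and 0.0897), or CD11b single-positive replicate 3 or 4 (0.0996 and 0.0844), and was kept on leaving out each of the other 7 arrays. The 4 arrays of the third slide, all CD11b+, had PRF1 levels of 3.86 to 4.15, and on that slide CD11b and slide cannot be told apart. The difference was 1.32 within the first slide and 1.99 within the second, and with slide as a block it was 1.59 ± 0.32 (log2, SE) with an adjusted p of 0.360. The second PRF1 probe gave 1.81 ± 0.33 (log2, SE; adjusted p = 0.0921), with 8 of 10 CD11b+ arrays above all CD11blow arrays.

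Markers of T cells, some of which also carry perforin, were read on the same arrays. CD3D was well above background on all 18 NK arrays and also on both B cell arrays. It was not called against B cells (2.50 ± 0.85, log2, SE; adjusted p = 0.107). The mean level of the 5 T cell markers measured ran from -0.66 to -0.15 in double-low, -0.31 to 0.33 in CD27 single-positive, -0.72 to 0.88 in double-positive and -1.28 to 0.58 in CD11b single-positive cells, against -3.10 and -2.25 on the B cell arrays. Of these 5 markers, 1 had a positive CD11b+ difference, and their median difference was -0.55 (log2). Of the 12 NK markers, 9 had a positive difference, with a median of 0.23. The markers of other cells had mostly negative differences, where the median of all genes was -0.13. Positive differences numbered 0 of 6 for stroma (median -0.69), 0 of 5 for mast cells and basophils (-0.46), 0 of 4 for dendritic cells (-0.09), 0 of 3 for platelets (-0.21), 1 of 7 for neutrophils (-0.11), 1 of 5 for plasma cells (-0.35), 2 of 8 for monocytes and macrophages (-0.05) and 2 of 9 for B cells (-0.14), and the 1 erythroid marker was at -0.17. The part of any of these in the PRF1 result was not tested.

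**Figure D3:**
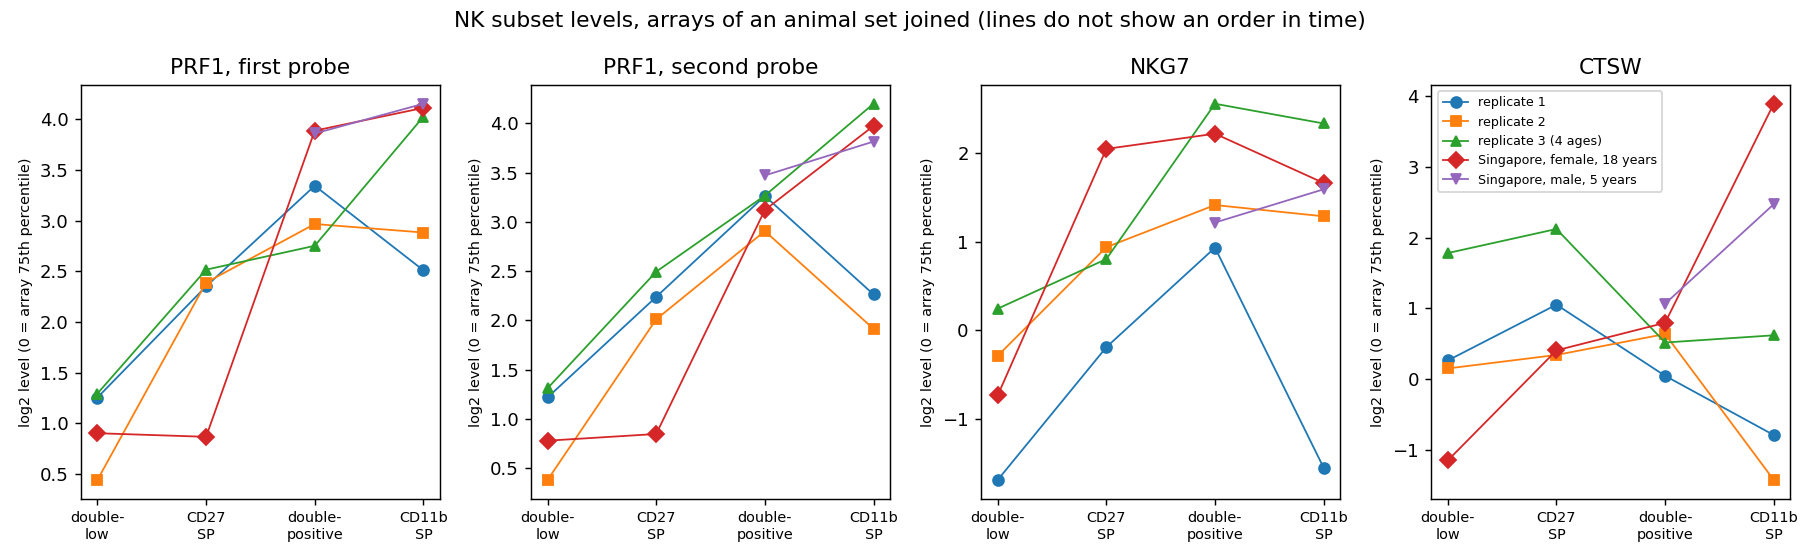
Level (log2, 0 at the 75th percentile of the array) of both PRF1 probes, NKG7 and CTSW in the 4 NK subsets, with the arrays of an animal set joined by a line that shows no order in time (the replicate 3 arrays carry 4 different ages). Both PRF1 probes are higher in double-positive than in double-low cells for each of the 4 sets measured in both, while CTSW in CD11b single-positive cells runs from -1.42 to 3.89.

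By the probe that stood for each gene, GNLY and NKG7 had the next largest differences between CD11b+ and CD11blow cells, and neither passed the test over all genes. GNLY lay at 0.96, 3.36, 3.10 and 4.12 in double-low, 2.27, 2.66, 3.63 and 3.06 in CD27 single-positive, 3.64, 3.97, 4.77, 2.59 and 4.28 in double-positive and 2.50, 3.53, 4.81, 4.31 and 4.66 in CD11b single-positive cells. Of the 10 CD11b+ arrays, 5 were above all CD11blow arrays, and the rest overlapped them. The difference was 1.01 ± 0.42 (log2, SE; limma adjusted p = 0.944). It was 1.46, 0.74 and 1.42 within the sets of replicates 1 to 3, the last of unlike ages, and 0.88 within the set of the 18-year-old female.

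NKG7 lay at -1.69, -0.29, 0.24 and -0.74 in double-low, -0.19, 0.94, 0.80 and 2.05 in CD27 single-positive, 0.93, 1.41, 2.56, 1.22 and 2.22 in double-positive and -1.55, 1.29, 2.33, 1.59 and 1.66 in CD11b single-positive cells. The double-low arrays were low, as was CD11b single-positive replicate 1, and only 3 CD11b+ arrays were above all CD11blow arrays. The difference was 1.22 ± 0.47 (log2, SE; limma adjusted p = 0.944). It was 0.63, 1.02 and 1.92 within the sets of replicates 1 to 3, the last of unlike ages, and 1.28 within the set of the 18-year-old female.

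On the probe that stood for each gene, the remaining 4 genes had CD11b differences of less than 2 standard errors. The second RAB27A probe, described below, gave 1.5 ± 0.63 (log2, SE). CST7 lay at 2.06, 0.69, 3.78 and 2.62 in double-low, 3.75, 2.23, 4.04 and 4.14 in CD27 single-positive, 3.79, 3.21, 3.35, 5.56 and 3.86 in double-positive and 2.16, 2.57, 4.21, 3.74 and 4.11 in CD11b single-positive cells, a difference of 0.74 ± 0.45 (log2, SE). The highest CST7 value was on double-positive replicate 4, the dimmest array. CTSW differed by 0.16 ± 0.60 (log2, SE). Within the sets of replicates 1 to 3, the last of unlike ages, it was -1.03, -0.64 and -1.38, and within the set of the 18-year-old female it was 2.71.

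CTSW varied most in the CD11b single-positive cells, at -0.79, -1.42, 0.62, 2.47 and 3.89, where the 2 arrays of the third slide were the highest. In the other subsets it lay at 0.27, 0.15, 1.78 and -1.15 (double-low), 1.05, 0.34, 2.12 and 0.41 (CD27 single-positive) and 0.05, 0.64, 0.52, 1.07 and 0.80 (double-positive). With slide as a block the sign of the CTSW difference turned, to -0.59 ± 0.56 (log2, SE). SRGN, the proteoglycan, lay at 4.97, 4.78, 4.78 and 5.97 in double-low, 5.78, 5.75, 4.96 and 5.63 in CD27 single-positive, 5.71, 5.66, 4.00, 6.64 and 5.28 in double-positive and 5.30, 5.19, 4.51, 4.58 and 4.06 in CD11b single-positive cells. It differed by -0.23 ± 0.31 (log2, SE), and its subset means ranged from 4.73 ± 0.51 (SD, n = 5) in CD11b single-positive to 5.53 ± 0.39 (SD, n = 4) in CD27 single-positive cells.

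RAB27A differed by -0.00 ± 0.65 (log2, SE), a value whose sign turned under most other settings. Its arrays spread from -2.66 to 2.29 within the CD11b single-positive and from -0.63 to 2.90 within the double-positive cells, wider than any gap between subset means. The pair of RAB27A probes did not follow each other over the 18 NK arrays (r = 0.11, Spearman's rho = 0.25, described with no test), with gaps of up to 5.26 (log2). The second probe gave a CD11b difference of 1.5 ± 0.63 (log2, SE; adjusted p = 0.885). The first RAB27A probe also followed the brightness of the arrays more than the other genes did, with r = 0.65 and rho = 0.57 against the log2 75th percentile, where the other 6 genes had r between -0.37 and 0.24. The part of brightness in the RAB27A levels was not tested. For PRF1 and GNLY the pairs of probes gave r = 0.96 and 0.98 (rho = 0.93 and 0.98).

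The third comparison set the CD27+ subsets (double-positive and CD27 single-positive, 9 arrays) against the CD27low subsets (9 arrays). None of the 7 genes passed the limma test, and neither did any of the 12192 genes tested (0%), while 2695 genes and 1 of the 7, NKG7, had an unadjusted p under 0.05. The differences were 1.06 ± 0.47 for NKG7, 0.92 ± 0.45 for CST7, 0.68 ± 0.65 for RAB27A, 0.57 ± 0.31 for SRGN, 0.44 ± 0.31 for PRF1, 0.19 ± 0.60 for CTSW and -0.05 ± 0.42 for GNLY (log2, SE). Adjusted p-values ran from 0.217 for NKG7 to 0.942. The median difference of the 7 genes was 0.57 (log2), against -0.37 for all genes, and quantile normalization moved the latter to -0.13. The NKG7 difference was 1.99, 0.68 and 0.39 within the sets of replicates 1 to 3, the last of unlike ages, and 1.67 within the set of the 18-year-old female.

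**Figure D4:**
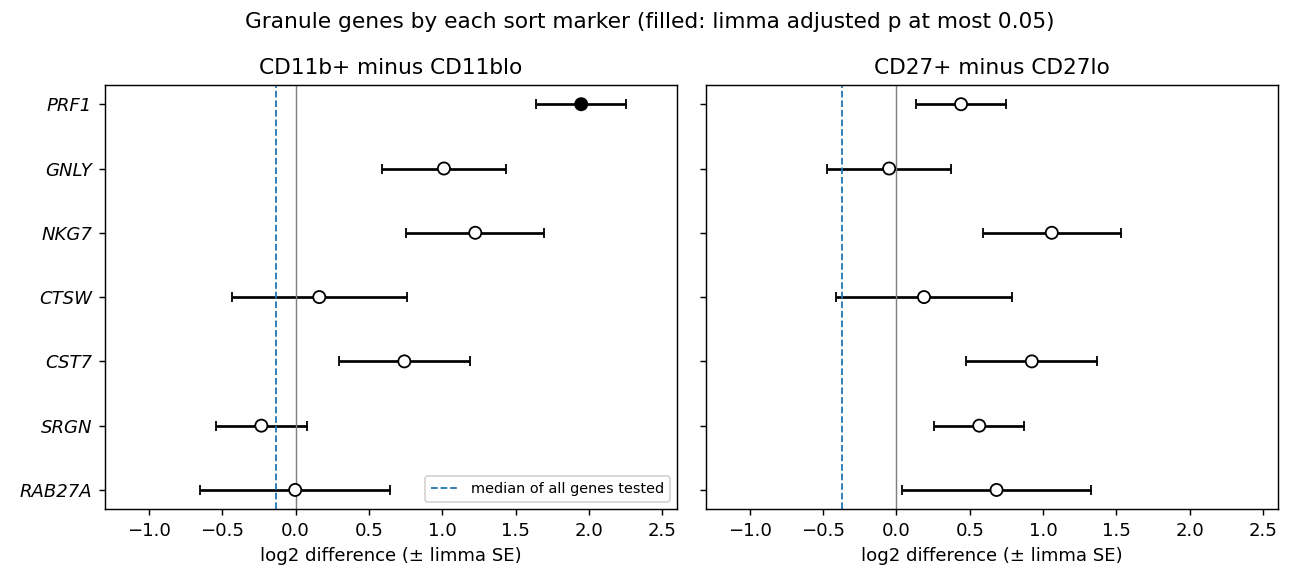
Difference of each gene (log2, circles, whiskers ± 1 SE from the limma fit) by CD11b (left) and by CD27 (right), with the median of all genes tested as a dashed line. PRF1 by CD11b, at 1.95, is the only filled circle, which marks an adjusted p at or under 0.05.

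Between single subsets, no gene of the 7 passed and none of the 12192 genes did (0% in each of the 6 comparisons by limma). PRF1 had the largest difference of the 7 in 4 of these 6. By mean PRF1 level the order was CD11b single-positive (3.54 ± 0.78, SD, n = 5), double-positive (3.36 ± 0.51, n = 5), CD27 single-positive (2.03 ± 0.78, n = 4) and double-low (0.97 ± 0.40, n = 4). Of the neighbours in that order, only double-positive and CD27 single-positive cells did not overlap in their arrays, a separation in the same direction that 0.344% of all genes showed. Their difference was 1.33 ± 0.44 (log2, SE; adjusted p = 1.0).

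PRF1 differed by 2.56 ± 0.44 between CD11b single-positive and double-low cells (log2, SE; limma adjusted p = 0.152) and by 2.39 ± 0.44 between double-positive and double-low cells (adjusted p = 0.128). In both comparisons every CD11b+ array was above every double-low array, as for 0.705% and 1.35% of all genes. At an unadjusted p of 0.05 these comparisons called 437 and 2556 genes. The CD11b difference of PRF1 was 1.33 among CD27+ cells and 2.56 among CD27low cells, and the test of that difference gave -1.23 ± 0.62 (log2, SE; limma adjusted p = 1.0). No gene of the 7 passed that interaction test, nor did any other gene (0%), with 176 genes at an unadjusted p under 0.05.

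The double-low cells had the lowest mean level of PRF1, GNLY, NKG7, CTSW, CST7 and RAB27A among the 4 subsets. Against CD27 single-positive cells all 7 differences were negative, from -1.52 ± 0.70 for NKG7 to -0.02 ± 0.63 for GNLY, with a median of -1.06 where the median of all genes was 0.44. None passed the test (adjusted p from 0.374 to 0.990), and 1562 of all genes had an unadjusted p under 0.05. NKG7 differed by 2.28 ± 0.67 between double-positive and double-low cells (log2, SE; adjusted p = 0.163), with no overlap of arrays, and CST7 by 1.66 ± 0.63 (adjusted p = 0.191). A test of any difference among the 4 subsets called none of the 7 and no other gene (0%), with PRF1 at an adjusted p of 0.126 and 1064 genes at an unadjusted p under 0.05. The mean level of the 12 NK markers ran from 0.22 to 1.85 on the double-low arrays. It ran from 1.26 to 1.93 in CD27 single-positive, 1.02 to 2.21 in double-positive and 0.75 to 2.30 in CD11b single-positive cells. For the 6 stroma markers these ranges were -1.80 to -1.31, -2.62 to -1.92, -4.06 to -2.26 and -3.07 to -1.21, in the same order. The part of either in the double-low levels of the 7 genes was not tested.

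Apart from the step between double-positive and CD27 single-positive cells for PRF1, the subset order rested on overlapping arrays. By its first probe, GNLY means had the PRF1 order, from 3.96 ± 0.96 in CD11b single-positive to 2.89 ± 1.35 in double-low cells. The gaps were only 0.11 between the CD11b+ subsets and 0.015 between the CD11blow subsets. By the second GNLY probe, double-positive cells (3.94) were above CD11b single-positive cells (3.90). NKG7 and CST7 had their highest mean in double-positive cells (1.67 ± 0.69 and 3.95 ± 0.94, SD, n = 5). CTSW, SRGN and the first RAB27A probe had theirs in CD27 single-positive cells (0.98 ± 0.82, 5.53 ± 0.39 and 1.61 ± 0.81, SD, n = 4). The second RAB27A probe was instead highest in double-positive cells (0.48 ± 1.68, SD, n = 5), with CD27 single-positive cells at -0.89 ± 1.23 (n = 4). For these 6 genes every pair of neighbouring NK subsets overlapped.

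Over the 18 NK arrays the 7 genes did not move as a block. After the subset means were removed, GNLY and NKG7 had r = 0.72 (r = 0.71 and rho = 0.69 before), and PRF1 and CTSW 0.63 (0.41 and 0.47 before). Every pair among PRF1, GNLY, NKG7, CTSW and CST7 had positive r, from 0.26 to 0.71 before and 0.10 to 0.72 after. SRGN had negative r with GNLY, NKG7 and CTSW, from -0.46 to -0.25 before and -0.49 to -0.47 after. So did the first RAB27A probe with GNLY, NKG7, CTSW and CST7, from -0.34 to -0.04 before and -0.42 to -0.23 after. These values are descriptions over arrays that share slides and scaling and may share animals, and no test was made.

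The genes whose levels were most like each of the 7 over the 18 NK arrays were found among 12171 others by Pearson's r. For PRF1 they were CTDSP1 (r = 0.88), the kinase STK38 (0.84) and the calcium-binding S100A4 (0.83). After the subset means were removed, these 3 had r = 0.80, 0.51 and 0.55. For GNLY they were RPP30 (0.79), NDUFAF5 (0.77) and GMIP (0.77). For NKG7 the nearest was the granzyme gene GZMH (0.84), then SLC50A1 (0.82) and NOTCH1 (0.81). CST7 was nearest to TYROBP (0.91), the signalling adaptor of activating NK receptors, then CFL1 (0.86) and RPS28 (0.83). CTSW had TRIB2 (0.77), ABTB3 (0.75) and SIPA1 (0.74), and SRGN had RPN1 (0.91), CHD1 (0.91) and BSDC1 (0.89). The first RAB27A probe, which also followed array brightness, had MRPS23 (0.94), ANO6 (0.92) and EID1 (0.91). Apart from those of PRF1, the genes named had r from 0.65 to 0.93 after the subset means were removed. The highest of many values were picked here, so they carry no p.

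The other genes of the granule pathway were counted by role. Against B cells, 1.72% of the 12388 genes tested were called higher in NK cells and 2.92% were called in either direction. Of 5 granzymes, which perforin admits to the target, 4 were measured and all 4 were called higher in NK cells than in B cells: GZMH by 6.46, GZMA by 6.18, GZMK by 6.08 and GZMB by 5.84 (log2), with a median of 6.13. By CD11b none was called, and GZMH had the largest difference of the 4, 2.59 ± 0.57 (log2, SE; adjusted p = 0.293).

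Of 24 genes for docking, priming and fusion of granules, the step at which RAB27A acts, 17 were tested against B cells. Of these, 2 were called higher, where 1.72% of all genes tested were. The 2 called were SYTL2, a RAB27 effector, by 4.21 ± 0.77 (log2, SE; adjusted p = 0.00317) and RAB27B, the paralogue of RAB27A, by 3.84 ± 0.86 (adjusted p = 0.0184). The list median was -0.05. Of 25 genes for granule biogenesis and movement 18 were tested and none was called, with 16 negative differences and a median of -0.81 where the median of all genes was 0.36. The pair of lowest p were HPS3 (-1.70 ± 0.47, log2, SE; adjusted p = 0.0558) and SORT1 (1.62 ± 0.60; adjusted p = 0.128).

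Among 10 tested genes of granule proteases and their inhibitors 1 was called, where 2.92% of all genes tested were called in either direction. It was CTSH, a cathepsin that was lower in NK cells, with a difference of -3.98 ± 0.54 (log2, SE; adjusted p = 0.000154), and the list median was -1.2. Of 16 genes that build chondroitin sulfate, the chains carried by serglycin, 1 was called, the sulfotransferase CHST15, at -6.42 ± 0.76 (log2, SE; adjusted p = 3.06e-05), with a median of 0.13. None of 6 tested genes of granule and lysosome membranes and contents was called, and the pair of lowest p were CD63 (1.23 ± 0.57, log2, SE) and LAMP3 (0.81 ± 0.51).

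By CD11b and by CD27 no gene of any of these 6 lists passed the limma test. The values of the pair with the lowest p in each list follow as log2 difference ± SE. By CD11b, with adjusted p of 0.293 for GZMH and 0.944 for all the rest, the granzymes were GZMH and GZMB (0.44 ± 0.29), and the serpins that inhibit granule proteases were SERPINB1 (1.31 ± 0.50) and SERPINB9 (1.05 ± 0.64). For docking and fusion they were the calcium sensor SYT7 (-0.57 ± 0.32) and SYTL1, a RAB27 effector (0.55 ± 0.38). For biogenesis they were GNPTAB (1.06 ± 0.49) and HPS4 (1.21 ± 0.63), for membranes CD63 (0.55 ± 0.37) and LAMP2 (0.80 ± 0.71), and for chondroitin sulfate CSGALNACT2 (1.44 ± 0.60) and CHPF (-0.53 ± 0.24).

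By CD27 the adjusted p of the pairs ran from 0.199 to 0.289. For docking and fusion they were STXBP2, a syntaxin-binding protein needed for granule fusion (-1.1 ± 0.37), and its partner STX11 (1.17 ± 0.71). For biogenesis and movement they were the kinesin KIF5B (1.29 ± 0.44) and the actin regulator WAS (1.42 ± 0.50). The granzymes were GZMK (1.14 ± 0.47) and GZMH (1.30 ± 0.57), the proteases and inhibitors CSTA (-0.96 ± 0.38) and LGMN (-0.58 ± 0.24), the membrane genes CD164 (0.90 ± 0.34) and CD63 (0.93 ± 0.37), and the chondroitin sulfate genes CHST15 (-1.44 ± 0.51) and PAPSS1 (-0.74 ± 0.27).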

How the data were processed

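RNA of sorted cells was amplified and labelled with Cy3, per the labels' protocols. The deposited scanner files hold spot intensity from Agilent Feature Extraction 10.7.1.1, per the submitters' processing notes, which also name Partek. The deposited value table holds log2 values that share their quantiles between arrays, and its unstated scale was found by setting it against the scanner values (r at least 0.994 on each array). Its rows were matched by feature number.

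Processed intensity was taken as log2 minus the log2 75th percentile of each array, after control spots and outlier flags were left out, and spots of a probe were averaged. Of 58659 probes, 20417 (34.8%) were matched by transcript accession to 1 gene of the RefSeq table of assembly T2T-MFA8v1.1. The probe with the highest mean over 20 arrays stood for a gene. Genes well above background on at least 4 of 18 NK arrays (12192), or on at least 2 of 20 arrays (12388) for B cells, were tested with limma 3.58.1 in R 4.3.3 (lmFit and eBayes with trend and robust, Benjamini-Hochberg over all genes tested, threshold 0.05). The fit was also run on known differences added to residuals of these arrays, shuffled between arrays. That shuffling unlinks the residuals from slide and animal label, so the run cannot weigh either. NK cells against B cells used the mean of the 4 subset means. The 7 genes, every probe matched to them and the called genes of the lists were named by rule, with the 2 list genes of lowest p where none was called, and for each of the 7 genes the 3 others of highest r. PLEKHG3 was named after its value was seen. The genes, lists and markers were chosen with earlier results of these data known. The alternatives were quantile, median and normexp scaling (offset 50, on median rather than mean spot signals), the value table, the filter, the probe rule, array weights, blocks for replicate number, animal set and slide, and each array left out. No sequences or coordinates were used here. The number of arrays limits the precision.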

Additional observations from a re-analysis of the deposited data

Results flagged for a closer look

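In 40 groups of 4 or 5 arrays (each probe in each NK subset), 5 had an array farther from its neighbours than Dixon's 95% limit allows, which chance does in about 1 of 20 groups. PRF1 on CD27 single-positive replicate 4 was the lowest of 4, at 0.87 (ratio of gap to range 0.900), and the second PRF1 probe read 0.85 on the same array. NKG7 on CD11b single-positive replicate 1 was the lowest of 5, at -1.55. CST7 on double-positive replicate 4, the dimmest array, was the highest of 5, at 5.56. SRGN on double-low replicate 4, the second dimmest array, was the highest of 4, at 5.97. RAB27A on CD11b single-positive replicate 5 was the lowest of 5, at -2.66, where its second probe read -0.60.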

How the results depend on the processing

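The count of the 7 genes called higher in NK cells than in B cells was 4 to 6 with each array left out and 4 to 7 under the other alternatives (7 with array weights, where 45.8% of all genes were called), and all 7 differences kept their sign in each. Between CD11b+ and CD11blow cells the count of 1 became 0 under median centring (PRF1 adjusted p = 0.0675), the mean of a gene's probes (0.0537), the replicate block (PRF1 1.81, adjusted p = 0.144), the animal set block (0.177), the slide block (0.360) and without the 2 dimmest arrays (0.0912), and was 0 to 1 with each array left out. PRF1 was called in 7 of 13 alternatives and 7 of 18 leave-one-out fits, with differences of 1.59 to 2.06 and 1.75 to 2.07. With array weights the count was 1 by CD27 (SRGN, with 32.4% of all genes called), 1 for CD11b single-positive against double-low (PRF1, the only gene called), 2 for double-positive against double-low (PRF1 and NKG7, with 28.1% of all genes called) and 1 for any subset difference (PRF1, with 1.69% of all genes called); normexp gave 1 (PRF1) in each of the last 2. With the replicate block SRGN also passed against B cells (1.79, adjusted p = 0.0302), and with the animal set block CTSW did not (adjusted p = 0.147). By CD11b and by CD27, signs turned only for genes whose reported difference was within 1 standard error of 0. CTSW by CD11b was -0.23 with array weights, -0.23 with the replicate block, -0.084 with the animal set block, -0.59 with the slide block, -0.13 without the 2 dimmest arrays and -0.20 to 0.46 with each array left out. RAB27A by CD11b was 0.077 under quantile normalization, 0.080 with normexp, 0.077 in the value table, 0.11 under median centring, 0.75 with the mean of probes, 0.35 with array weights, 0.32 with the replicate block, 0.066 with the animal set block, 0.35 with the slide block, 0.013 without the 2 dimmest arrays and -0.23 to 0.45 with each array left out. GNLY by CD27 was 0.13 under median centring, 0.015 with the mean of probes, 0.31 without the 2 dimmest arrays and -0.37 to 0.16 with each array left out. CTSW by CD27 was -0.10 without the 2 dimmest arrays and -0.11 to 0.56 with each array left out. The cause of these changes was not tested. Same-numbered arrays correlated by -0.30 to 0.42 in their deviations from subset means (median 0.22, 17 of 25 over 0.1), against a median of -0.07 with 22 of 96 over 0.1 for arrays of different number. Of 18 arrays, 12 correlated best with an array of their own number. The number 4 joins arrays of different animal labels. Grouped by origin, sex and age instead, with replicate 3 kept together, 18 of 25 same-label pairs were over 0.1, against 21 of 96 others. By that grouping 11 of 18 arrays correlated best with an array of their own label. This is a hint of pairing from the data, but not every same-numbered pair was over 0.1 and the labels name no shared animal, so the reported fits have no block.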
